A study of Homo sapiens with 4 samples.

Results

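The regions described here are USF1 peaks that lay inside protein-coding genes and were found in both of the peak lists of a chromatin immunoprecipitation and sequencing (ChIP-seq) experiment in Huh7, a cultured human line that was established from a hepatocellular carcinoma. A peak of the list for IP 1 against input 1 (list 1) was taken when it overlapped a peak of the list for IP 2 against input 2 (list 2) by at least 1 bp and lay on chromosomes 1 to 22 or X. Its centre had to be inside a protein-coding gene and over 1 kb from both ends of every annotated gene of any kind. This gave 1275 shared gene-body peaks of the 5335 shared peaks on these chromosomes, and of 14300 peaks in list 1 and 27325 in list 2. They were 28.5% of the list 1 peaks that met the same position rule. The peaks were chosen by the calls themselves, which rest on tags, score and fold, so their enrichment is described below and not tested.

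The study overexpressed USF1 in Huh7 cells to look for its targets in liver cancer, per the series' text, and all 4 libraries were made from such cells. IP 1 and IP 2 came from crosslinked chromatin precipitated with an antibody to the FLAG tag, and input 1 and input 2 from the same kind of chromatin without precipitation. The labels number the libraries and do not say whether the numbers were separate cultures, and an IgG or untagged library was not analysed here. After filtering by the caller the libraries held between 43562726 and 47165647 reads.

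USF1 is a transcription factor of the basic helix-loop-helix leucine zipper family, which binds DNA as a dimer. Its recognition sequence is the palindromic E-box CACGTG, and it is best known for binding close to the promoters of broadly expressed and metabolic genes, in liver among other tissues. Many genes also have promoters inside their own body, from which shorter transcripts start, so a site far from the outer end of a gene may still lie beside a start.

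Some of the strongest shared gene-body peaks lay at such internal starts. The 2 that ranked first by the smaller of their list 1 and list 2 fold enrichments, in FNDC3A and SLC36A1, were centred 26 and 40 bp from annotated internal starts of these genes. The following are the 250 bases before the internal start, written 5′ to 3′ along the gene, for the 7 members that ranked first by this smaller fold among those whose peak overlapped a window around such a start. They come from RefSeq on GRCh38.p14, and capitals mark every CACGTG.
FNDC3A, chr13:49110067-49110316 (plus strand): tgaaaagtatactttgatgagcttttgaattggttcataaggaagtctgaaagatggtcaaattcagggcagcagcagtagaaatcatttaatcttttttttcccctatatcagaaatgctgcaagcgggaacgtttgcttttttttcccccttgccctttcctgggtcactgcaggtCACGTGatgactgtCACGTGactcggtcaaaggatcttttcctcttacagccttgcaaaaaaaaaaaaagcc
SLC36A1, chr5:151447353-151447602 (plus strand): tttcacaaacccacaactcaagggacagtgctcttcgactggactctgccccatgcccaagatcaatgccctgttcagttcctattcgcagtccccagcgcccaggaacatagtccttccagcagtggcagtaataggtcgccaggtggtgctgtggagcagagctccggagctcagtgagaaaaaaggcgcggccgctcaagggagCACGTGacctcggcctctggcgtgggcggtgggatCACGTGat
STARD13, chr13:33285756-33286005 (minus strand): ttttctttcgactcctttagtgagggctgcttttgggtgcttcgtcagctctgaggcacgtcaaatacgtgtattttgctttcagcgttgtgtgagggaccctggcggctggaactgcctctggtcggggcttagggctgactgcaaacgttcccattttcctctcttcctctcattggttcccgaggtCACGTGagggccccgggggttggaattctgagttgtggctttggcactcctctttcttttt
MAPRE2, chr18:35041163-35041412 (plus strand): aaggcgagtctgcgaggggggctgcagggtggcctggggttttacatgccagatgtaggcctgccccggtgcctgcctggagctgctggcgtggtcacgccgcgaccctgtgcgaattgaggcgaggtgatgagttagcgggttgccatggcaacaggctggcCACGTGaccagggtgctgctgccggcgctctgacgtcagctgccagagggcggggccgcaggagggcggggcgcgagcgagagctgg
KDM4C, chr9:6757723-6757972 (plus strand): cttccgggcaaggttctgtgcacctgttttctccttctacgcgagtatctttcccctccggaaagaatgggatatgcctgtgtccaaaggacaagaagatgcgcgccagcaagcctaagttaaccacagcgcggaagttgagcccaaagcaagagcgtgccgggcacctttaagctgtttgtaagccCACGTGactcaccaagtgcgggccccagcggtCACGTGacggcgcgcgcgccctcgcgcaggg
DYRK1A, chr21:37366523-37366772 (plus strand): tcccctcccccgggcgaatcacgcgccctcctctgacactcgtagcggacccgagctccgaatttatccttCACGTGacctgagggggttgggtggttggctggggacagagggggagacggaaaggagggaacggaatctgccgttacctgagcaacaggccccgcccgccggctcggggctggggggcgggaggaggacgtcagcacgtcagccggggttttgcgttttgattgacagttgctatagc
APC, chr5:112737635-112737884 (plus strand): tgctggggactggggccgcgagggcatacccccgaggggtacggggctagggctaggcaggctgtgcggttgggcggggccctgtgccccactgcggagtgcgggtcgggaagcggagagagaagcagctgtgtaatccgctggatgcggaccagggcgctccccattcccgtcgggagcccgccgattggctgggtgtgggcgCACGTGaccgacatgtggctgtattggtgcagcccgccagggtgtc
Each of these 7 stretches held the E-box. The next 3 members in the same ranking, TNPO2, ZNF217 and TMEM232, held none in the 250 bases, and the sequence of TMEM232 follows. These 8 were chosen after their values were seen.
TMEM232, chr5:110726672-110726921 (minus strand): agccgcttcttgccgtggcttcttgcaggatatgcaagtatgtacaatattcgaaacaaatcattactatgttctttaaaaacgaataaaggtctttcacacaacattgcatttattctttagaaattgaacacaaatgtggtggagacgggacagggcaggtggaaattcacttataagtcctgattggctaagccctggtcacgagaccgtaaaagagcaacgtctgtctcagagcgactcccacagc

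The summits, the positions of highest tag density that the caller reported, lay close to these E-boxes. Positions are counted along the gene from the annotated start, negative before it, and an E-box is placed by its first base. FNDC3A, which encodes a protein with fibronectin type III domains needed for sperm development in mice, had E-boxes at -72 and -58 and summits at -59 in list 1 and -73 in list 2. SLC36A1, a proton-coupled amino acid transporter of the lysosome that acts upstream of the growth kinase complex mTORC1, had E-boxes at -43 and -8 and summits at -40 and -30. Both genes thus had the summit of each list within the stretch that holds the E-box pair or beside it. In KDM4C, a demethylase of histone H3, the E-boxes stood at -63 and -31 and the summits at -60 and -54. The other 4 held 1 E-box each. It stood at -61 in STARD13, which has a lipid-binding START domain, at -87 in MAPRE2, which binds the growing ends of microtubules, at -179 in the kinase gene DYRK1A and at -46 in APC, a scaffold of the complex that degrades beta-catenin. Their summits, in the same order of genes, stood at -80, -71, -170 and -42 in list 1 and at -55, -82, -144 and -49 in list 2. The DYRK1A peak also lay 1142 bp from the gene's outer 5′ end, just beyond the gene-end limit. In TMEM232 the summits stood at -15 and -14, on a stretch without the motif.

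FNDC3A had 111 tags (IP reads in the peak) at 29.49-fold in list 1 and 106 tags at 31.17-fold in list 2. SLC36A1 had 122 tags at 25.49-fold and 127 tags at 21.80-fold. KDM4C had the highest list 2 fold of all members, 34.49 from 341 tags, against 15.49 from 263 tags in list 1. Of the 7 members printed with an E-box, KDM4C was the one whose lists lay farthest apart by ratio. STARD13 reached 16.36-fold in list 1 and 19.13-fold in list 2, and MAPRE2 reached 16.21-fold and 25.24-fold. DYRK1A stood at 18.21-fold and 13.26-fold, and APC at 12.50-fold and 21.50-fold.

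Internal starts were common among the shared gene-body peaks as a whole. Start positions came from RefSeq windows that cover 250 bases before and 50 bases after each annotated start, with 4621 starts lying inside gene bodies as defined here, in 3086 genes. Chromosome 8 had no windows in the table used, so its 52 members were not analysed for starts. Of the other 1223 members, 153 (12.5%, 95% interval 10.8% to 14.5%) were centred within 1 kb of an internal start, and in all 153 it was a start of a gene that holds the peak. The area within 1 kb of such starts was 0.766% of the gene-body area that could hold a member, 8.64 of 1128 Mb. Members lay there at 17.7 per Mb (15 to 20.7), against 0.956 per Mb in the rest of the gene bodies.

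The unshared peaks of the same genomic class were set beside them. In list 1 alone, 64 of 3099 gene-body peaks (2.07%, 1.62% to 2.63%) were at an internal start, and in list 2 alone 341 of 7412 (4.60%, 4.15% to 5.10%). Neither interval reached that of the shared peaks. All 3 shares exceeded the share of area, and the shared peaks had the highest. By density near starts they did not. Peaks of list 1 alone lay near internal starts at 7.40 per Mb (5.70 to 9.45), against 2.71 per Mb elsewhere, and those of list 2 alone at 39.4 per Mb (35.4 to 43.9), against 6.32 per Mb elsewhere. Intervals here and below cover counting error only, since peaks of the same libraries are not replicates.

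**Figure D1:**
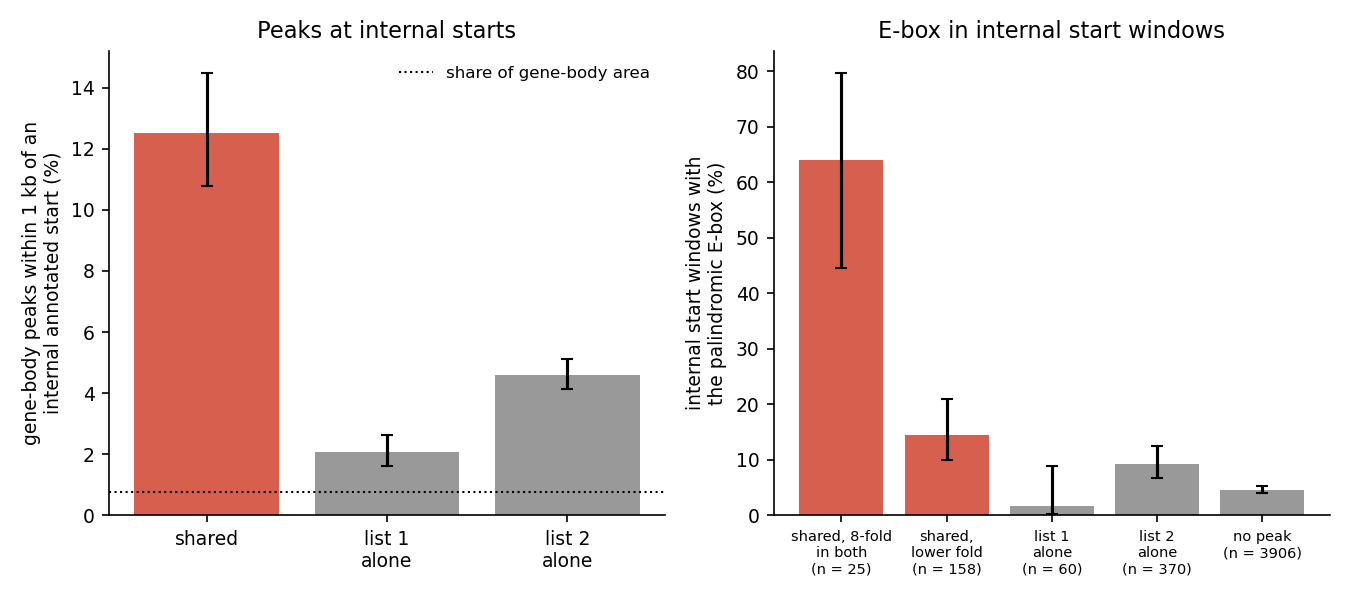
Left, the percentage of gene-body peaks centred within 1 kb of an annotated internal start, for shared peaks and for peaks of list 1 or list 2 alone, with 95% Wilson intervals as bars and the share of gene-body area as the dotted line. Right, the percentage of internal start windows that hold the palindromic E-box, by the peaks that overlap them, with n windows and Wilson intervals; shared peaks stood at 12.5% on the left, and windows at 8-fold shared peaks at 64.0% on the right. Peaks of list 1 or list 2 alone were not split by fold.

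Members at internal starts differed in shape from the other members. They were wider, with a median of 1105 bp against 778.5 bp for members away from starts, and held more tags, with medians of 87 against 50.5 in list 1 and 97 against 55 in list 2. Their median fold was lower, 5.40 against 6.60 in list 1 and 6.48 against 7.10 in list 2. In all 3 measures they stood nearer to the 1907 shared peaks within 1 kb of a protein-coding gene end, which had a median width of 1088 bp, 85 tags and a fold of 5.69 in list 1. Their summits lay a median of 67 bp before the start (-67), with 115 before it and 38 after it, and 100 of the 153 were within 250 bp of it.

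The share at internal starts did not follow fold in one direction. With members in order of their lower fold and cut into 5 groups of 244 or 245, the share was 21.2% at 2.65 to 4.61-fold, 16.3% up to 5.46-fold, 7.76% up to 6.45-fold, 5.74% up to 7.67-fold and 11.5% from 7.69 to 29.49-fold. The share was thus highest among the weakest members, and the intervals of the last group (8.06% to 16.1%) and of the one before it (3.45% to 9.40%) overlapped. Of the 30 members with a false discovery rate (FDR) of at most 5% in both lists, 12 were at internal starts, and of the 20 strongest by fold 5 were.

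At internal starts the E-box was most frequent in the windows that the strongest members overlapped. Windows were searched for CACGTG, which reads the same on both strands. Among internal start windows overlapped by members it was found in 39 of 183 (21.3%, 16% to 27.8%). Where the member reached at least 8-fold in both lists it was found in 16 of 25 windows (64.0%, 44.5% to 79.8%), and in 23 of 158 (14.6%, 9.90% to 20.9%) where it did not. In windows of peaks from list 1 alone 1 of 60 (1.67%) held it, and from list 2 alone 34 of 370 (9.19%). Internal start windows with no peak in either list held it in 4.58% of 3906, and all 34961 start windows in 7.27%. Windows at shared peaks of gene ends held it in 27.8% of 2621 (26.1% to 29.5%), an interval that overlaps that of the member windows. Peaks of gene ends and of 1 list alone were not split by fold, so the 64.0% has no like set beside it. Several windows can lie under the same peak, and a match describes letters, not a bound site. The search covered start windows and not the sequence around each summit. Of the 153 members at internal starts, 89 had their summit inside a window. A window without the E-box thus does not show that the sequence at the summit lacked it.

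The longer form GTCACGTG, searched on both strands and contained in the E-box count, was in 30 of the 183 member windows (16.4%), against 1.58% of all internal start windows and 2.41% of all start windows. The related hexamer CATGTG, on both strands and not overlapping in its letters with CACGTG, was in 8.74% of member windows and in 12.6% of all internal start windows. For the 37 members at internal starts with a CACGTG in a window, the summit lay a median of 17.5 bp from the motif's centre in list 1 and 19.5 bp in list 2. Among the 16 of these with at least 8-fold in both lists the medians were 15 and 8.50 bp, and 15 of the 16 were within 50 bp in both lists. Among the other 21 they were 23.5 and 29.5 bp, and 11 were within 50 bp in both.

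Further named genes at internal starts covered varied roles. TNPO2, a nuclear import receptor, had 12.27-fold in list 1 and 18.93-fold in list 2, 1199 bp from its outer 5′ end. UVSSA, a factor of transcription-coupled DNA repair, had 12.56-fold and 11.43-fold. PMVK, which phosphorylates mevalonate in the synthesis of sterols, had 251 tags at 10.22-fold and 242 tags at 9.95-fold. Of these, UVSSA held an E-box in its window, at -191, and TNPO2 and PMVK held none. LZTFL1, which regulates traffic of the BBSome in cilia, had its E-box at -27 and folds of 9.55 and 15.59. CLCN5, an endosomal chloride and proton exchanger, had its E-box at -50 and folds of 9.28 and 8.59.

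Away from internal starts, the members of highest fold lay in genes of many tissues. NEUROD4, a basic helix-loop-helix factor of neurons, had 86 tags at 19.77-fold in list 1 and 88 tags at 19.94-fold in list 2, 5721 bp from the gene's 5′ end. COLEC11, a collectin made mainly in liver that starts the lectin pathway of complement, had 130 tags at 17.66-fold and 174 tags at 26.56-fold. The lists placed the summit of the COLEC11 peak 2 bp apart. DMD, the dystrophin gene, held a member at 17.11-fold and 25.28-fold and another at 13.47-fold and 14.52-fold. These lay 1149510 and 820849 bp from its 5′ end, and 34409 and 106311 bp from the nearest annotated start.

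The developmental factor SOX5 had 16.81-fold in list 1 and 20.17-fold in list 2. AGBL1, an enzyme of the family that trims glutamate from tubulin, had 16.41-fold and 23.73-fold. BTG4, which acts in the decay of maternal mRNA in mouse eggs, had 16.11-fold and 16.42-fold. Their distances to the nearest annotated start were 27524, 47681 and 26718 bp. SPATA2L and KLHL12 were the opposite case, with peaks 1385 and 1533 bp from the 5′ end of the gene and so just beyond the gene-end limit. SPATA2L had 14.71-fold and 18.06-fold. KLHL12, an adaptor of the CUL3 ubiquitin ligase that acts on the SEC31 coat protein, had 274 tags at 13.85-fold and 288 tags at 24.00-fold.

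Others of the 20 strongest were TMEM132C at 14.66-fold in list 1 and 26.47-fold in list 2, FGF10 at 14.51-fold and 19.48-fold, TAFA2 at 17.48-fold and 14.07-fold, KAZN at 13.94-fold and 19.83-fold and ANKFN1 at 13.39-fold and 20.41-fold. FGF10 encodes a growth factor of limb and lung buds. Of the 20, 14 had an FDR of at most 5% in list 1 and all 20 in list 2.

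**Figure D2:**
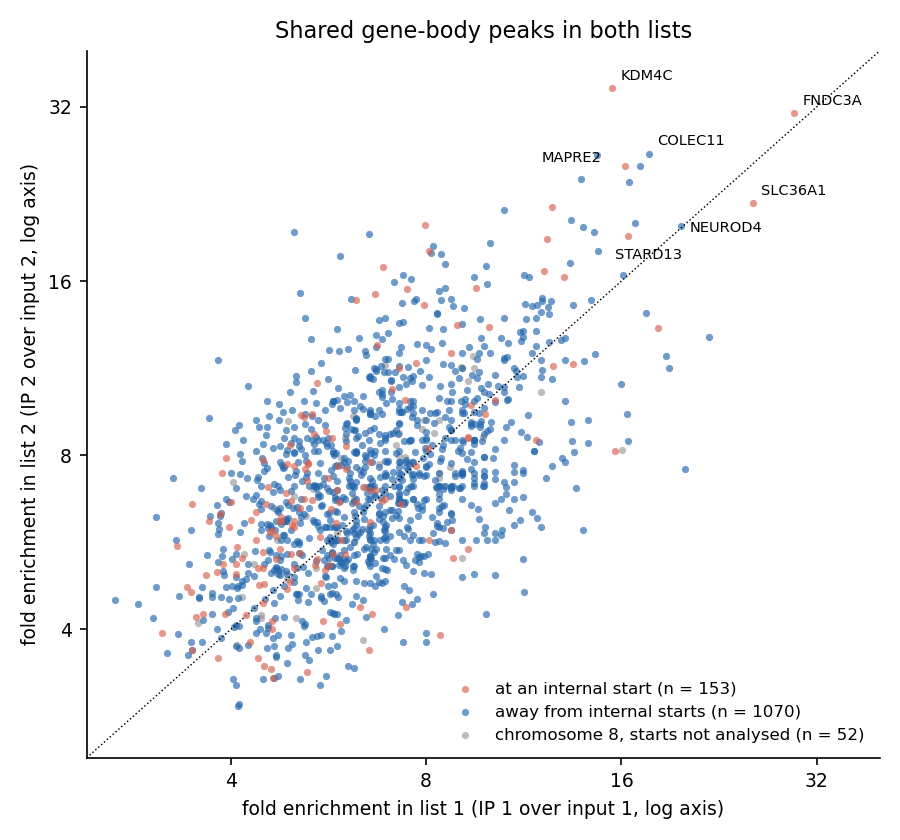
Fold enrichment of each shared gene-body peak in list 1 (x) and in list 2 (y), both on log axes, coloured by whether the peak was within 1 kb of an annotated internal start; the dotted line marks equal folds. FNDC3A and SLC36A1 stand at the top right, KDM4C above the line, and members at internal starts are spread over the whole range.

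Across the 1275 members, folds had a median of 6.54 in list 1 and of 7.08 in list 2, with medians of 54 and 58 tags and widths of 797 and 874 bp. The lists graded these peaks differently by FDR. In list 1, 31 members (2.43%) had an FDR of at most 5%, beside 4.84% of all shared peaks, and 636 stood at the ceiling of 100%. In list 2, 734 (57.6%) passed, beside 63.2% of all shared peaks. The 30 that passed in both were beside 4.76% of all shared peaks. FDR chose no member, but comes from the same comparison as the calls, so nothing is read from these shares.

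Tag counts of the members in the lists had a Spearman correlation of 0.75 and folds one of 0.54 (n = 1275 peaks, which share libraries and mappability, so no p is given). Fold was higher in list 2 for 756 members (59.3%). The summits of the lists lay a median of 35 bp apart, and 1012 members had them within 100 bp. Members that overlapped several list 2 peaks numbered 12, and the partner of highest fold was used. The lists' summits lay farther apart at internal starts, a median of 61 bp, than away from them, 32 bp.

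The largest ratios of list 2 over list 1 fold were at FGF10, with 19.48-fold in list 2 against 5.01-fold in list 1, UNC93B1 with 11.68 against 3.82, ZCCHC2 with 17.71 against 5.90, EBF1 with 15.23 against 5.11 and DPH6 with 19.29 against 6.53. The FGF10 value is a second, narrower list 1 peak that overlaps the same list 2 peak as the strong FGF10 member above. Among the smallest ratios were those at RGS7, with 4.65-fold in list 2 against 11.34-fold in list 1, MAGI2 with 5.93 against 13.97, NPR3 with 4.25 against 9.91 and DEDD2 with 3.91 against 8.40. FGF10 and NPR3, a receptor that clears natriuretic peptides, lie on chromosome 5, in the stretch described below.

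The strongest gene-body peaks that were found in list 1 alone reached 15.70-fold in CNTN5, 14.56-fold in PCCA and 14.56-fold in SEMA3C. In list 2 alone they reached 16.29-fold in MYRIP, 15.94-fold in SYT1 and 15.94-fold in PGM2L1. Folds of this size were thus not by themselves a mark of a shared peak. The median fold was 5.68 over the 3205 peaks of list 1 alone and 5.31 over the 7756 of list 2 alone, below both medians of the shared peaks.

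At the 1 kb limit, the members nearest to a gene end were in IWS1 at 1005 bp, with 5.25-fold in list 1 and 3.38-fold in list 2, MYBPC1 at 1019 bp, with 12.02 and 10.91, and PTK2 at 1020 bp, with 4.46 and 4.19. Just outside were peaks in LMNB1 at 1000 bp, with 13.47-fold and 21.67-fold, ZNF682 at 989 bp, with 4.25 and 6.33, and CTBP2 at 988 bp, with 4.83 and 5.08. The caller's score, minus 10 times log10 of its p, had to reach 50 at the cutoff of 1e-05. Members nearest to that were DPYSL2 at 50.03 in list 1 and GNAL at 50.06 and GPC6 at 50.01 in list 2.

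The distance from annotated starts varied widely. Beside the 153 members within 1 kb of an internal start, 110 (8.99%) were 1 to 5 kb from an annotated start, 87 were 5 to 10 kb, 382 were 10 to 50 kb, 200 were 50 to 100 kb and 291 (23.8%) were over 100 kb away. Strand was known for the host of 1050 members, and these lay a median of 77972 bp from the 5′ end of the gene, with 172 (16.4%) within 10 kb of it.

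Members were densest in the first stretch of the gene, and the difference was smaller without those at internal starts. From 1 to 5 kb after the 5′ end there were 97 members at 1.86 per Mb (1.51 to 2.27), against 0.955 per Mb (0.845 to 1.08) from 10 to 50 kb and 0.798 per Mb from 50 to 100 kb. Without members at internal starts the first stretch held 53, or 1.02 per Mb (0.763 to 1.33), against 0.769 and 0.731 per Mb in the others. At the same distance from the 3′ end the density was 1.03 per Mb (0.777 to 1.35). Beyond 500 kb from the 5′ end, which only the longest genes reach, the density was again higher at 1.52 per Mb (1.27 to 1.80), and 1 of those 130 members was at an internal start. Peaks of list 1 alone stood at 4.89 per Mb there, against 2.10 from 10 to 50 kb and 2.13 from 1 to 5 kb. Peaks of list 2 alone stood at 7.26, 6.56 and 9.24 per Mb in the same order.

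**Figure D3:**
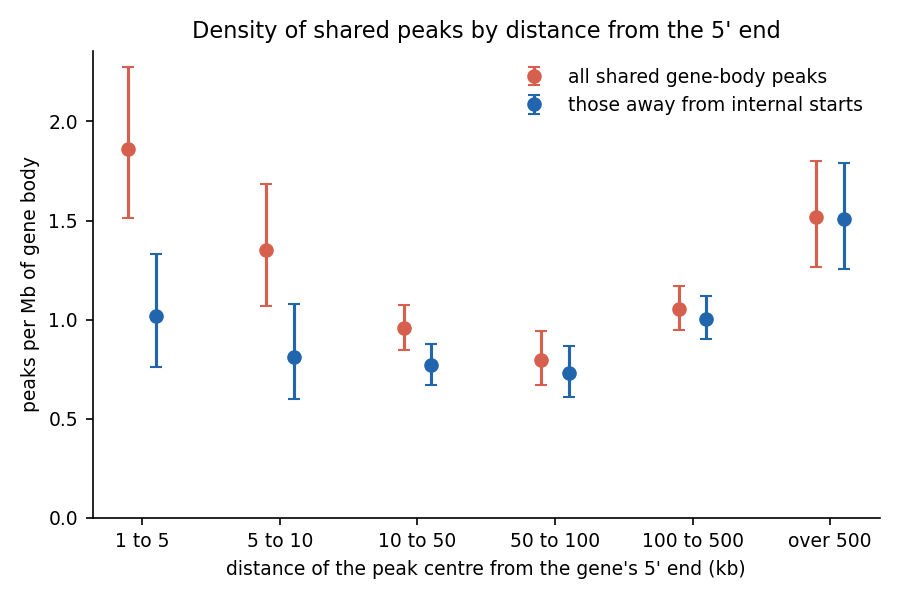
Shared gene-body peaks per Mb of gene body by distance of the peak centre from the gene's 5′ end, for all members with a known strand and for those away from internal starts; bars are 95% exact Poisson intervals. The 1 to 5 kb class stood at 1.86 per Mb for all members and at 1.02 per Mb without those at internal starts.

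The 1275 members lay in 1000 genes, 5.01% of the 19974 protein-coding genes on these chromosomes, and 822 genes held 1 member each. Host genes were long, with a median of 138 kb against 24.2 kb over all protein-coding genes. Hosts of members at internal starts were shorter than other hosts, with medians of 53.1 and 166 kb. A shared peak within 1 kb of a gene end, beside the member, was found in 89 host genes (8.90%, 7.29% to 10.8%), against 11.5% of all protein-coding genes. Among hosts of internal-start members it was 21 of 158 (13.3%, 8.86% to 19.5%), and among other hosts 69 of 810 (8.52%, 6.79% to 10.6%). Per Mb of gene body, genes with such a gene-end peak held 0.932 members (0.763 to 1.13) and genes without it 1.09 (1.03 to 1.15), intervals that overlap.

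Genes with 4 or more members numbered 29 and held 142 of them (11.1%). They were long genes, with a median of 959 kb, and 26 exceeded 500 kb. NELL1, DLG2 and CDH12 had 8 members each, RBFOX1 had 7, and DAB1, PTPRD and SHISA9 had 6. GRIN2A, KCNH8, SOX5 and TENM2 were among those with 5. The 17 with 4 were AGBL1, CALN1, CAST, CNTN5, CSMD1, CTNND2, DLGAP1, DMD, EBF1, FSTL4, KAZN, RGS7, SGCD, SYT1, TMEM117, UNC13C and ZFHX3. Of the 142 members 1, in CAST, was at an internal start. Of the 29 genes 1 had a shared gene-end peak, beside 11.5% of all protein-coding genes.

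The members within such a gene differed in strength. In DLG2, a scaffold protein of synapses, the lower fold ran from 4.68 to 12.38 and 3 of the 8 members had an FDR of at most 5% in list 2. In NELL1, a secreted protein of bone formation, it ran from 5.56 to 11.86, and in CDH12, a brain cadherin, from 3.19 to 10.48. The strongest DLG2 member had 102 tags at 12.38-fold in list 1 and 104 tags at 12.53-fold in list 2. The strongest NELL1 member had 125 tags at 18.75-fold and 137 tags at 11.86-fold. No gene of these 3 had all its members at low FDR. In KCNH8, a potassium channel, 5 members in 387 kb gave 13.2 per Mb, and in GRIN2A, a subunit of the NMDA glutamate receptor, 5 members in 430 kb gave 12 per Mb.

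Gene lists were compared by members per Mb of gene body, since a list of long genes holds more by length alone, and over all gene bodies the density was 1.08 per Mb (1.02 to 1.14). Of 23 lists, 22 had an exact Poisson interval that held this value. The exception was the list of neuronal adhesion and synapse genes, with 86 members in 32 of 63 genes at 1.68 per Mb (1.34 to 2.08) and a median lower fold of 6.60. None of the 86 was at an internal start. Of the 63 genes 2 (3.17%) had a shared gene-end peak, beside 11.5% of all protein-coding genes. DLG2 led this list, followed by OPCML, a neuronal adhesion molecule, at 11.65-fold in list 1 and 12.04-fold in list 2. CNTN3, a contactin, had 10.92-fold and 11.33-fold, and CNTNAP2, an adhesion protein of neurons, had 10.56-fold and 11.69-fold.

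Length was set beside this. The neuronal genes had a median length of 767 kb, and those over 500 kb held 1.55 members per Mb (1.21 to 1.95), against 1.32 (1.17 to 1.49) in other genes over 500 kb, so that these intervals overlapped. The 22 neuronal genes of up to 500 kb held 15 members at 2.81 per Mb (1.57 to 4.64), against 0.985 (0.923 to 1.05) in other genes of that length. Peaks of list 1 alone were also denser in neuronal genes over 500 kb, at 5.58 per Mb against 3.62 in other genes over 500 kb, and those of list 2 alone stood at 7.48 against 6.54. In neuronal genes of up to 500 kb, list 1 alone stood at 4.12 per Mb against 2.33 in other genes of that length. List 2 alone stood at 7.50 against 6.50.

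**Figure D4:**
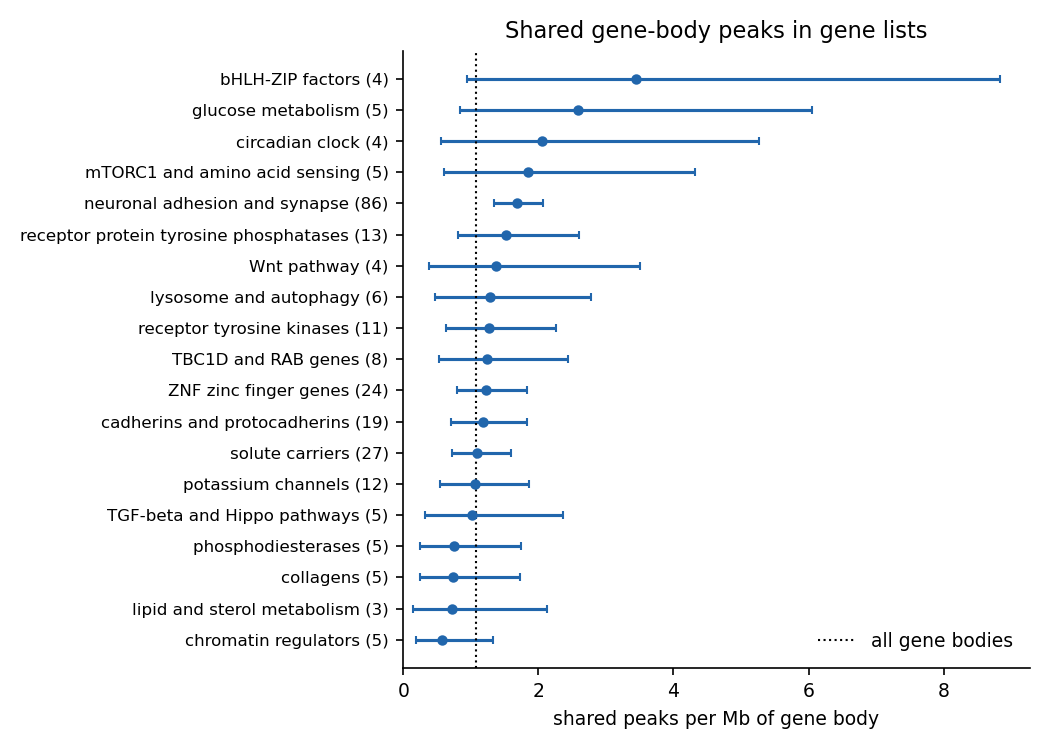
Shared gene-body peaks per Mb of gene body for 19 gene lists with 3 or more members, with the number of members in parentheses, 95% exact Poisson intervals and the density over all gene bodies as the dotted line. The neuronal list, at 1.68 per Mb, is the one whose interval lies wholly above the line.

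The lists tied to known USF1 and E-box biology were short, so their counts were small and their intervals wide. Over all protein-coding genes, 5.01% held a member and 11.5% had a shared gene-end peak. Of 86 lysosome and autophagy genes 4 (4.65%) held 6 members, at 1.28 per Mb (0.470 to 2.79), and 34 (39.5%) had a shared gene-end peak. The lipid transfer protein gene ATG2B had 8.00-fold in list 1 and 8.50-fold in list 2. SQSTM1, the autophagy receptor p62, had 115 tags at 7.61-fold and 270 tags at 9.32-fold, 1643 bp from an annotated start. LIPA, lysosomal acid lipase, had 5.92-fold and 5.71-fold, 254 bp from an internal start.

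In the mTORC1 and amino acid sensing list 5 of 47 genes (10.6%) held a member, beside 5.01% of all protein-coding genes, at 1.85 per Mb (0.602 to 4.32), and 3 of these, SLC36A1, SLC1A5 and SLC3A2, were at internal starts. SLC1A5, a glutamine transporter, had 104 tags at 4.96-fold in list 1 and 173 tags at 5.39-fold in list 2. SLC3A2, the heavy chain shared by several amino acid exchangers, had 3.47-fold and 4.65-fold and also had a shared gene-end peak. The lysosomal arginine sensor gene SLC38A9 and RICTOR, a subunit of mTORC2, had members away from starts, at 6.55 and 10.98-fold and at 7.28 and 5.49-fold. Of 24 vacuolar ATPase genes ATP6V0A1 held the sole member, at 4.45-fold and 5.94-fold.

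In the glucose list 5 of 45 genes (11.1%) held a member, at 2.59 per Mb (0.841 to 6.05). PFKFB2, which sets the level of fructose 2,6-bisphosphate, had 4.48-fold in list 1 and 5.11-fold in list 2 in a peak shared with YOD1. PFKM had 3.49 and 3.68, the insulin receptor gene INSR had 4.07 and 3.21, and GBE1, the glycogen branching enzyme, had 9.10 and 7.44. The lipid list stood at 0.727 per Mb (0.150 to 2.12), and in it CPT1A, which brings fatty acids into mitochondria, had 74 tags at 7.58-fold and 130 tags at 16.10-fold, 4912 bp from its 5′ end. ABCG1, a sterol exporter, had 5.59-fold and 9.01-fold. Of 51 hepatocyte genes 2 (3.92%) held a member, at 0.879 per Mb (0.106 to 3.17). The oncofetal glypican gene GPC3 was among them, with 6.22-fold and 8.84-fold.

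In the circadian list 4 of 25 genes (16%, 6.40% to 34.7%) held a member, beside 5.01% of all protein-coding genes, at 2.06 per Mb (0.561 to 5.27). NR1D1, a nuclear receptor that represses BMAL1, had 86 tags at 8.41-fold in list 1 and 92 tags at 10.53-fold in list 2, 1310 bp from its 5′ end. BHLHE41, a repressor that binds E-boxes, had 5.57-fold and 7.30-fold 1231 bp from its 5′ end, and both of these genes had a shared gene-end peak too. BMAL1 itself had 4.73-fold and 5.06-fold, and RORB had 9.68-fold and 8.94-fold. Of 23 genes for factors of the same family as USF1, MGA, MITF and MNT (13.0% of the list) held 4 members, at 3.45 per Mb (0.941 to 8.84). MGA had 8.33-fold and 14.03-fold, 1121 bp from an annotated start, MITF had 6.92 and 8.67, and MNT had 5.25 and 8.57. The densities of the mTORC1, glucose, clock and factor lists were above the overall 1.08 per Mb, and their intervals hold that value.

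Among signalling genes, 9 of 53 receptor tyrosine kinases (17.0%, beside 5.01% of all protein-coding genes) held 11 members at 1.26 per Mb. IGF1R, the receptor of insulin-like growth factor, had 174 tags at 11.19-fold in list 1 and 248 tags at 12.60-fold in list 2. NTRK3 had 7.48 and 9.60, ROR1 had 10.64 and 6.86, and EPHA6 had 10.92 and 6.73. These 4 lay between 14956 and 140419 bp from an annotated start. In the Wnt list APC, TCF7L2 and APC2 held 4 members, and APC was well above TCF7L2 at 5.80 and 5.71-fold and APC2 at 5.00 and 7.08-fold. In the TGF-beta and Hippo list SMAD9 had 13.11-fold and 12.75-fold, AMOT had 11.29 and 13.10, and TGFBR3 had 3.13 and 3.94, 57 bp from an internal start.

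Chromatin regulators stood at 0.569 per Mb (0.185 to 1.33), with 5 members in 70 genes, 3 of them at internal starts and all of these in histone demethylases. KDM4C is given above. KDM3A had 129 tags at 9.86-fold in list 1 and 99 tags at 9.43-fold in list 2, and KDM2B had 5.59 and 5.06. ARID1A had 5.80 and 6.40, and SETD1B had 4.99 and 6.48, both away from starts. Solute carriers held 27 members in 25 of 398 genes (6.28%, beside 5.01% of all protein-coding genes), 7 at internal starts. SLC36A1 was the strongest, followed by SLC9C1 at 12.02-fold and 14.17-fold. Zinc finger genes held 24 members in 20 of 517 genes (3.87%), 6 at internal starts. The 80 cytosolic ribosomal protein genes, with 0.310 Mb of gene body in all, held 0 members, with an interval of 0 to 11.9 per Mb. A shared gene-end peak was found in 11 of them (13.75%), beside 11.5% of all protein-coding genes.

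The remaining lists held members at densities of 0.743 to 1.52 per Mb, and 1 of these members was at an internal start. They included collagens (5 members), receptor protein tyrosine phosphatases (13), phosphodiesterases (5), potassium channels (12), cadherins and protocadherins (19) and TBC1D and RAB genes (8). PTPRD, with 6 members, reached 9.18-fold in list 1 and 10.01-fold in list 2, and PTPRG had 9.73 and 10.44. COL5A1, a fibrillar collagen, had 148 tags at 6.98-fold and 285 tags at 11.74-fold. PDE4D, a cyclic AMP phosphodiesterase, had 6.10 and 7.23.

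Chromosomes differed in density. Chromosome 19 had 79 members at 2.87 per Mb (2.27 to 3.58), 22 of them at internal starts, and chromosome 4 had 23 at 0.344 per Mb (0.218 to 0.517). Unshared peaks did not follow the same order. On chromosome 19 list 1 alone had 1.16 peaks per Mb and list 2 alone 9.30, while on chromosome 5 list 1 alone reached 7.64 per Mb and the shared peaks 1.48. Between 10 and 50 Mb of chromosome 5 lay 34 of its 98 members, with 339 gene-body peaks of list 1 alone and 88 of list 2 alone. Members in CDH12, CDH6, FGF10, NNT, NPR3 and RICTOR were among those in this stretch. Without chromosome 5, 1177 members were left and 12.8% of those analysed were at internal starts.

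**Figure D5:**
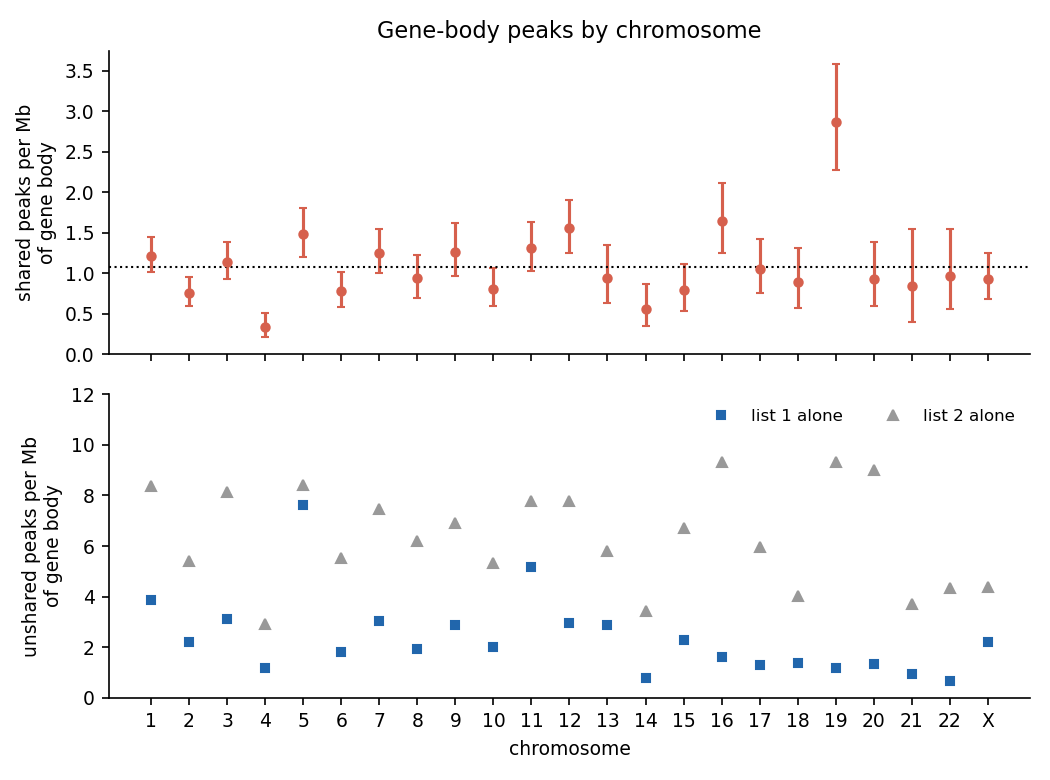
Gene-body peaks per Mb of gene body by chromosome, with shared peaks and their 95% exact Poisson intervals above (dotted line, all chromosomes together) and peaks of list 1 alone or list 2 alone below. Chromosome 19 stood highest among shared peaks at 2.87 per Mb, and chromosome 5 among peaks of list 1 alone at 7.64 per Mb.

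Members overlapped other annotation at times. Of the 1275, 76 were also inside a long non-coding RNA gene, 24 were inside 2 protein-coding genes, and 64 lay within 10 kb of another member.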

How the data were processed

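Data were 2 MACS 1.4.2 peak lists, 1 per IP against the input of the same number, called at p of 1e-05 without pooling, per the file headers. The authors deposited for each peak a count of tags, a fold enrichment (a ratio of IP tags to the caller's local background), a score (minus 10 times log10 of p) and an FDR in percent. All of these are the authors' own values. Bowtie2, deepTools, HOMER and GRCh38 are named per the submitters' processing notes, without roles.

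Genes came from the RefSeq table of GRCh38.p14 and starts and strand from its 34961 start windows, which gave strand for 15812 of 19974 protein-coding genes. Exons and introns were not used here. Python 3.11.15, numpy 2.4.6, pandas 2.3.3, scipy 1.17.1 and matplotlib 3.10.9 were used, and the position classes were tested on simulated peaks. Shares have Wilson intervals and densities exact Poisson intervals, at 95%. No test was made, as the calls chose the members. The planned E-box test around summits needs a genome and was not run.

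Genes named are the 20 members of highest lower fold, genes with 4 or more members, up to 4 per list, those nearest the 1 kb limit, the 5 largest and 5 smallest fold ratios and the 3 strongest unshared peaks of each list. Internal-start genes, genes beyond these and the printed sequences were chosen after their values were seen. The members and the 23 gene lists were chosen with earlier results of these data known. Some items that this rule names are not reported here. Alternatives covered overlap, thresholds, gene-end distance, peak position and each list alone.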

Additional observations from a re-analysis of the deposited data

How the results depend on the processing

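Numbers below follow the order: members, share of shared peaks inside gene bodies, median fold, share at an FDR of at most 5%, share within 10 kb of the 5′ end, share of hosts with a gene-end peak, gene lists whose interval leaves out the overall density, and share at internal starts; those that moved by less than their spread are left out. At p of at most 1e-10 in both lists they were 283, 19%, 9.10 (list 1) and 9.76 (list 2), 10.6% (list 1) and 100% (list 2), 21.8%, 3.38%, 0 lists and 19.7%. At 8-fold in both they were 228, 9.88 and 11.0, 11.8% and 89.9%, 11.6% and 0.952%. With FDR at or under 5% in both they were 30, 11.8%, 14.7 and 13.8, 29.6%, 0% and 40%. With a limit of 500 bp from gene ends the shares were 26.1%, 21.7%, 14.7%, 2 lists and 17.4%, and with 5 kb 18.8%, 6.95% and 9.43%. At 500 bp, gene-end peaks were still taken within 1 kb. A member could thus count as its own host's gene-end peak, so nothing is read from the 14.7%. With summits within 100 bp they were a list 2 fold of 7.52, 14.0%, 4.33%, 2 lists and 9.76%. With an overlap of 50% of each peak 7.16% of hosts had a gene-end peak. Settings that change which peaks count, here and in the next paragraph, change the gene-end peaks as well. The share over all protein-coding genes was not computed for them, so shifts in the host share are not read as a trait of the hosts. Counting genes in place of density, 7 lists left out the overall value. Without members at internal starts, a setting chosen after seeing the data, 10.9% lay within 10 kb of the 5′ end.

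Leaving out USF1_IP replicate 1 or 2, so that all gene-body peaks of the other list count, gave 4480 to 9042 peaks, 31.3% to 33.1% of all peaks, median folds of 5.83 (list 1) and 5.49 (list 2), 0.848% (list 1) and 24.3% (list 2) at low FDR, 10.8% to 14.4% near the 5′ end, 14.3% to 30.5% of hosts with a gene-end peak, 5 to 6 lists and 5.02% to 5.77% at internal starts. Summits in place of centres, counting from list 2 and leaving out chromosome 5 moved none of these. The share at internal starts stayed between 11.0% and 12.5% with 500 bp, window overlap, the host's own starts or no chromosome 19, all chosen after seeing the data. Planned E-box windows around summits were not run. No paired analysis was possible because each IP was set against its like-numbered input by the caller, and no comparison between groups of libraries was made here. With 1 list per IP, spread between replicates rests on 2 values, and most members had a high FDR in list 1.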

Other observations

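The members with the most tags were wide peaks, and 10 of the 15 with the highest list 1 counts lay on chromosome 5. NNT, which encodes the mitochondrial enzyme that makes NADPH from NADH, had 382 tags over 5625 bp in list 1, against 59 tags in its list 2 partner. CDH6, a cadherin of kidney, held one member with 352 tags in list 1 and 319 in list 2 and another with 318 and 377. TRIP13, an ATPase that remodels HORMA-domain proteins in mitosis and meiosis, had 341 and 724 tags. Folds were 5.37 in list 1 and 7.10 in list 2 in NNT, and 3.84 and 5.97 in TRIP13. The CDH6 members, in the order given, had 7.60 and 10.75, and 8.98 and 10.89. On other chromosomes RTN4, a reticulon that limits axon growth, had 287 and 326 tags in a 3350 bp peak centred 372 bp from an internal start. The lists placed the summit of the RTN4 peak 1933 bp apart, so its centre does not mark where both lists were highest. These genes were chosen after their values were seen.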
